A study of Homo sapiens with 13 samples.

Results

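The p53 family members TP63 and TP73 and 33 genes known as targets or partners of p53 were followed in the human line hFOB 1.19, fetal osteoblasts (bone-forming cells) that were immortalized. The 35 genes were a list of symbols, and each symbol matched 1 row of the count table, which held 43836 genes. This list and the other gene lists below were chosen with earlier results of these data known. Their shares called are therefore description, and cannot show an excess over all genes. The positive control medium held 10% fetal bovine serum (FBS) and that of the negative control none, and per the study's methods both received the solvent DMSO. The remaining cells were starved of serum in the same way and given 1 compound at 1 µg/mL: POG, which is the anthocyanin peonidin-3-O-glucoside, RES, which is the stilbene resveratrol, or DEG. The labels do not spell out DEG, while their treatment protocol lists delphinidin-3-glucoside beside the other compounds. The table held 12 libraries of polyA RNA: 2 positive controls, 2 negative controls, 3 RES, 3 POG and 2 DEG.

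p53 is a transcription factor that is kept low by the ubiquitin ligase MDM2 and its relative MDM4, and that is released from them after DNA damage, oncogene activity or loss of nutrients. It then switches on genes that stop the cell cycle (CDKN1A), repair DNA (DDB2, XPC, POLH), change metabolism (SESN1, TIGAR) or promote cell death (AEN), and it also switches on MDM2, which closes a feedback loop. TP63 and TP73 encode relatives that bind similar DNA elements. hFOB cells were immortalized with a temperature-sensitive large T antigen of SV40, a viral protein that binds p53 and blocks it, and the culture temperature was not given in the sources used here. All groups share this background, so the values below are those of cells in which p53 can be restrained by the antigen.

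Library totals ran from 38464619 to 51416358 counted reads, and the 35 genes together held between 0.184% and 0.239% of a library's reads. Collagen and matrix genes of the osteoblast were abundant (COL1A1 at 2463 to 2868 CPM, read counts scaled to a common total, and RUNX2 at 44.3 to 51.6 CPM), while IBSP had 0 or 1 read and SP7 0 to 8 reads per library. Medians over the libraries were low for ALPL (4.39 CPM), SPP1 (1.55), BGLAP (1.22), DLX5 (1.11) and BMP2 (0.192). In the negative controls the 11 osteoblast markers summed to 5263 to 5320 CPM. Most of this sum was COL1A1, COL1A2 and SPARC, with medians over the libraries of 2688, 1202 and 1058 CPM. The sum was 5461 to 5523 in the positive controls, 4906 to 5034 in RES, 4751 to 4787 in POG and 4763 to 4770 in DEG. The median log2 fold change of the 9 osteoblast markers tested was 0.05 for POG against RES and 0.08 for DEG against RES, where the sum was lower. Against the negative control it was −0.07 with RES, −0.05 with POG and −0.07 with DEG. Of 9 markers of other cell types, KRT18 alone exceeded 3 CPM. Their sum was 187 to 192 CPM in the negative controls, 204 to 223 with serum, 206 to 213 with RES, 155 to 162 with POG and 172 to 176 with DEG. The part of these shifts in the results below was not tested. In bulk RNA, fewer cells that express a gene and less RNA per cell cannot be told apart.

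All 35 genes passed the filter on low counts, and 31 of them had at least 100 reads in every library. Per kilobase of the longest transcript, CDKN1A (295 CPM per kilobase in the negative controls) and GDF15 (252) had the highest levels, followed by CCNG1 (45.8) and DDB2 (34.8). TP63 (0.104) and TP73 (0.413) had the lowest. Libraries of 1 group lay close together: the median coefficient of variation over the 35 genes was 2.87% in the negative controls, 3.998% in the positive controls, 3.45% in RES, 2.18% in POG and 3.71% in DEG. TP63 varied most in 4 of the groups, with 51.2% between the negative controls, and TP73 in DEG, with 32.3%. The exons of 14 of the 35 genes overlap another gene in the annotation, by up to 24.6% of their bases (XPC), and the strand setting of the counting was not stated.

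Calls rest on the exact test of edgeR at an FDR (false discovery rate) below 0.05, adjusted over all 17092 genes tested, and the alternatives named below are other tests, scalings, filters and dispersions, and each comparison without 1 of its libraries. With serum, 2 of the 35 genes rose and 17 fell against the negative control, where 42.4% of all genes tested were called (21.4% higher, 20.9% lower). With RES 4 rose and 2 fell, where 11.2% of all genes were called (4.94% higher, 6.21% lower). With POG 9 rose and 3 fell (all genes 14.5%, with 5.93% higher and 8.57% lower), and with DEG 7 rose and 2 fell (all genes 9.63%, with 3.52% higher and 6.11% lower). These comparisons share the negative control libraries. The shares of all genes include many genes with few reads. Leaving out those that averaged below 1 CPM kept 34 of the listed genes. Of these, 18 then passed for serum, where 52.3% of all genes did. For RES it was 7 beside 14.6% of all genes, for POG 12 beside 18.9%, and for DEG 9 beside 12.8%. The median log2 fold change of the 35 genes was −0.11 in the serum comparison, 0.02 for RES, 0.08 for POG and 0.06 for DEG, while the median over all genes tested was −0.01 with serum and 0.00 with each compound. When libraries were scaled by plain totals in place of TMM (the trimmed mean of M values), the split of rises and falls became 2 and 18 with serum, 5 and 1 with RES, 12 and 2 with POG and 9 and 2 with DEG. The calls over all genes shifted as well. Of them, the share that was higher went from 50.6% to 41% with serum and from 44.3% to 64% with RES. It went from 40.9% to 56% with POG and from 36.6% to 49.3% with DEG.

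**Figure D1:**
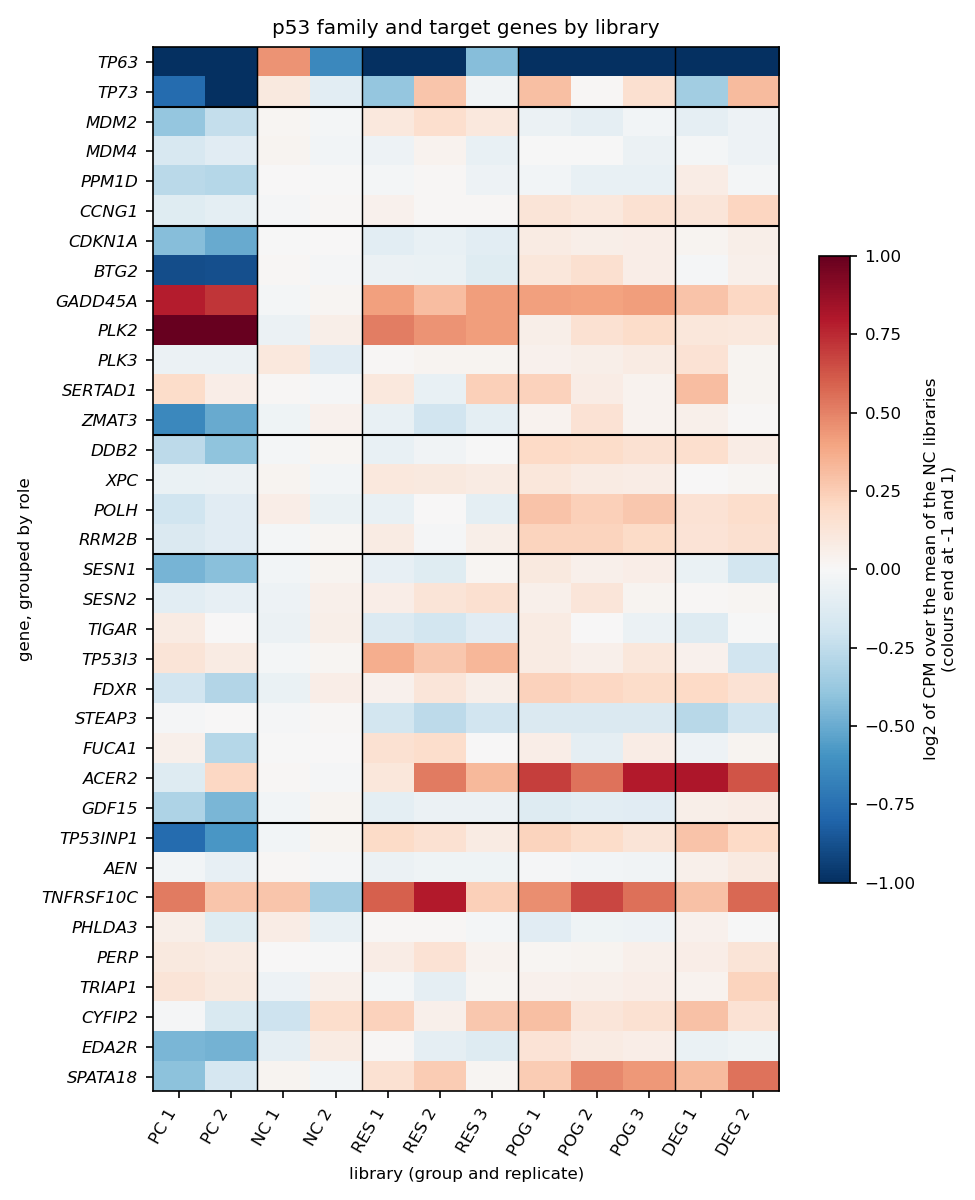
Levels of the 35 genes (rows, grouped by role between the lines) in the 12 libraries (columns), as the log2 ratio of CPM to the mean of the negative controls (NC). Red is higher and blue lower, and colours end at −1 and 1. In the positive controls (PC) 23 of the 35 genes had their lowest group mean, and 24 had their highest group mean in POG (11) or DEG (13). Group order was not counted over all genes, so these counts cannot be called particular to the list.

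Promoter sequence was compared with the p53 response element, which consists of 2 adjoining copies of a 10-base motif. Windows from 250 bases before to 50 bases after each start in RefSeq (GRCh38.p14) were held for 30 of the genes; GADD45A, PHLDA3, RRM2B, TNFRSF10C and TP53INP1 had none. With up to 2 mismatches at the 16 positions outside the invariant C and G, and a spacer of at most 1 base, an element stood in a window of 4 of the 30 genes (13.3%), against 0.674% of all 27305 genes with a window. With up to 3 mismatches it was 7 of 30 (23.3%) against 2.91%. The list was made of genes known as targets or partners of p53. A higher share than in all genes could follow from that choice, so these shares are description and no test. The 30 genes had 43 windows, and all 27305 genes had 35116. The motif reads alike on both strands. A match is a description of the letters, and no match says only that such an element is not in this window. The 7 elements are shown because they lie at genes whose levels are given below, with the element in capitals and 4 flanking bases or fewer in lower case, 5′ to 3′ on the strand of the gene.
DDB2 (chr11:47214979-47214999, plus strand, 0 mismatches, spacer of 1 base): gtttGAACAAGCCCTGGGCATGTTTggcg
MDM2 (chr12:68808923-68808942, plus strand, 2 mismatches): agctGGTCAAGTTCAGACACGTTCcgaa
TP73 (chr1:3690596-3690615, plus strand, 2 mismatches): caccGGGCAAGCTGAGGCCTGCCCcgga
AEN (chr15:88621306-88621325, plus strand, 2 mismatches): agccGGGCTTGCCCGGGCATGTGGgagc
FDXR (chr17:74872996-74873015, minus strand, 3 mismatches): gcccGGGCAGGAGCGGGCTTGCCCtgcg
GDF15 (chr19:18386186-18386205, plus strand, 3 mismatches): gcacAGCCATGCCCGGGCAAGAACtc
SESN1 (chr6:109009018-109009037, minus strand, 3 mismatches): gtctGGACAAGTCTCCACAAGTCAgaaa

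Both p53 relatives fell with serum, at very low levels. TP63 had 27 and 13 reads in the negative controls, 6 and 10 with serum, 10, 8 and 17 with RES, 3, 8 and 7 with POG, and 4 and 4 with DEG. All libraries with serum, POG or DEG lay below both negative controls, while RES overlapped them. Its log2 fold change was −1.52 with serum (SE 0.595, edgeR FDR 0.0229), −1.92 with POG (SE 0.556, edgeR FDR 0.00376) and −2.28 with DEG (SE 0.676, edgeR FDR 0.00681), and −0.96 with RES (edgeR FDR 0.208). Every one of the 3 calls of TP63 rested on the first negative control library: without negative control replicate 1 the edgeR FDR was 0.418 with serum, 0.315 with POG and 0.299 with DEG. The serum call also failed without positive control replicate 1 (edgeR FDR 0.253), by DESeq2 (0.0779) and with no filter on low counts (0.0658), and the DEG call without DEG replicate 1 (0.141) or 2 (0.135). TP73, whose protein shares many targets with p53, stood at 2.30 and 1.99 CPM in the negative controls and at 1.254 and 0.995 CPM with serum (log2 fold change −0.92, SE 0.256, edgeR FDR 0.0011). That call held in every alternative. RES (1.64, 2.59 and 2.09 CPM), POG (2.64, 2.15 and 2.39) and DEG (1.68 and 2.67) overlapped the negative controls. The exons of TP73 overlap TP73-AS1 on the other strand by 9.4% of their bases.

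The 4 feedback inhibitors of p53 fell with serum, and MDM2 differed between RES and the other compounds. MDM2, the ligase that marks p53 for destruction, stood at 124 and 121 CPM in the negative controls and at 93.6 and 103 CPM with serum (log2 fold change −0.31, SE 0.0429, edgeR FDR 1.48e-10). With RES it rose to 132, 137 and 131 CPM (0.13, SE 0.0387, edgeR FDR 0.0276). POG (117, 115 and 119.8 CPM) and DEG (115 and 118 CPM) lay below all other serum-free libraries without being called against the negative control. The direct difference passed for POG against RES (−0.18, SE 0.0343, edgeR FDR 7.25e-06) and for DEG against RES (−0.19, SE 0.0389, edgeR FDR 6.00e-05). Those 2 differences held in every alternative, whereas the rise of MDM2 with RES did not pass without negative control replicate 1 (edgeR FDR 0.121) or 2 (0.266) and without RES replicate 1 (0.051) or 2 (0.154). The phosphatase gene PPM1D fell with serum (−0.28, SE 0.0583, edgeR FDR 2.10e-05), from 30.2 and 30.1 to 25.0 and 24.7 CPM, and MDM4 by 0.14 (edgeR FDR 0.018). The call of MDM4 was lost without positive control replicate 1 (edgeR FDR 0.11) or negative control replicate 1 (0.18). Neither was called with a compound.

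CCNG1, whose cyclin G1 helps MDM2 against p53, stood at 111 and 113 CPM in the negative controls and rose to 122, 120.03 and 124 CPM with POG (0.13, SE 0.0357, edgeR FDR 0.0107) and to 121 and 129 CPM with DEG (0.17, SE 0.0392, edgeR FDR 0.00246). RES, at 115, 113 and 113 CPM, overlapped the negative controls. The POG call did not pass without negative control replicate 1 (edgeR FDR 0.152) or 2 (0.0759) or POG replicate 3 (0.0771), and the DEG call without negative control replicate 1 (0.0693) or DEG replicate 2 (0.214). CCNG1 fell by 0.11 with serum (edgeR FDR 0.0237), which did not pass without positive control replicate 1 (0.0638), without negative control replicate 1 (0.0734) or 2 (0.168), or with no filter on low counts (0.0639). Between compounds, CCNG1 was higher in POG than in RES (0.11, edgeR FDR 0.00944) and higher in DEG than in RES (0.14, edgeR FDR 0.00183). The first difference did not pass without RES replicate 2 (0.0528) or POG replicate 3 (0.0773), and the other without DEG replicate 2 (0.207).

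Among the 7 genes of cell cycle arrest and growth, serum lowered CDKN1A, BTG2 and ZMAT3 and raised PLK2 and GADD45A. CDKN1A encodes p21, which inhibits cyclin-dependent kinases. It stood at 666 and 671 CPM in the negative controls and at 498 and 470.1 CPM with serum (log2 fold change −0.46, SE 0.0294, edgeR FDR 1.24e-36). RES gave 622, 633 and 623 CPM, POG 707, 697 and 699, and DEG 682 and 696, so that the RES libraries lay below and the POG and DEG libraries above both negative controls. CDKN1A was higher in POG than in RES (0.16, SE 0.0238, edgeR FDR 3.90e-07) and higher in DEG than in RES (0.14, SE 0.0266, edgeR FDR 2.91e-04), in every alternative. Against the negative control its change was −0.09 with RES (edgeR FDR 0.0388), 0.07 with POG (0.154) and 0.04 with DEG (0.535). The RES call of CDKN1A was lost without any 1 of the 5 libraries compared (edgeR FDR 0.065 to 0.296), when libraries were scaled by plain totals (0.179) and with no filter on low counts (0.159).

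BTG2, an antiproliferative gene, fell with serum from 28.4 and 27.9 to 15.2 and 15.3 CPM (−0.88, SE 0.0636, edgeR FDR 9.02e-40). It stood at 27.0, 26.9 and 25.8 CPM with RES, 30.5, 31.4 and 29.6 with POG and 28.0 and 29.3 with DEG, and POG exceeded RES (0.20, SE 0.0479, edgeR FDR 4.87e-04). ZMAT3, which encodes an RNA-binding protein, fell with serum from 44.7 and 47.3 to 29.5 and 32.5 CPM (−0.57, SE 0.0588, edgeR FDR 5.33e-20). In ZMAT3, RES (43.8, 40.3 and 43.1 CPM) lay below POG (47.3, 50.97 and 47.1), a difference of 0.19 (SE 0.0459, edgeR FDR 4.37e-04), and below DEG (47.6 and 46.5), a difference of 0.15 (edgeR FDR 0.0299). The DEG difference of ZMAT3 did not pass without RES replicate 2 (edgeR FDR 0.179) or DEG replicate 1 (0.242) or 2 (0.105).

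GADD45A, a stress sensor that binds p21 and PCNA, was the only one of the 35 genes called in all 4 comparisons with the negative control, and it rose in each. It stood at 23.4 and 24.1 CPM in the negative controls, 41.0 and 39.0 with serum, 31.5, 29.5 and 31.7 with RES, 31.6, 31.4 and 31.7 with POG, and 28.9 and 27.4 with DEG. No other library came as low as the negative controls. The log2 fold change was 0.75 with serum (SE 0.0583, edgeR FDR 1.11e-34), 0.38 with RES (SE 0.055, edgeR FDR 2.85e-09), 0.41 with POG (SE 0.0549, edgeR FDR 3.84e-11) and 0.24 with DEG (SE 0.0611, edgeR FDR 0.00278). The DEG call of GADD45A was lost without negative control replicate 1 (edgeR FDR 0.0754) or DEG replicate 1 (0.122), and the other 3 held in every alternative.

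PLK2, a polo-like kinase induced by serum as well as by p53, rose most. Its level was 13.6 and 14.7 CPM in the negative controls and 46.5 and 44.9 CPM with serum (1.69, SE 0.0674, edgeR FDR 1.44e-140). With RES it reached 20.2, 19.4 and 19.0 CPM (0.46, SE 0.0667, edgeR FDR 1.35e-09), a rise held in every alternative. POG (14.7, 15.8 and 16.1 CPM) and DEG (15.4 and 15.3) were not called against the negative control, and both lay below RES, by −0.33 (SE 0.0572, edgeR FDR 3.09e-07) and −0.35 (SE 0.066, edgeR FDR 4.77e-06). PLK3, a related kinase, and SERTAD1, which binds CDK4, were not called in any of the 7 comparisons.

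**Figure D2:**
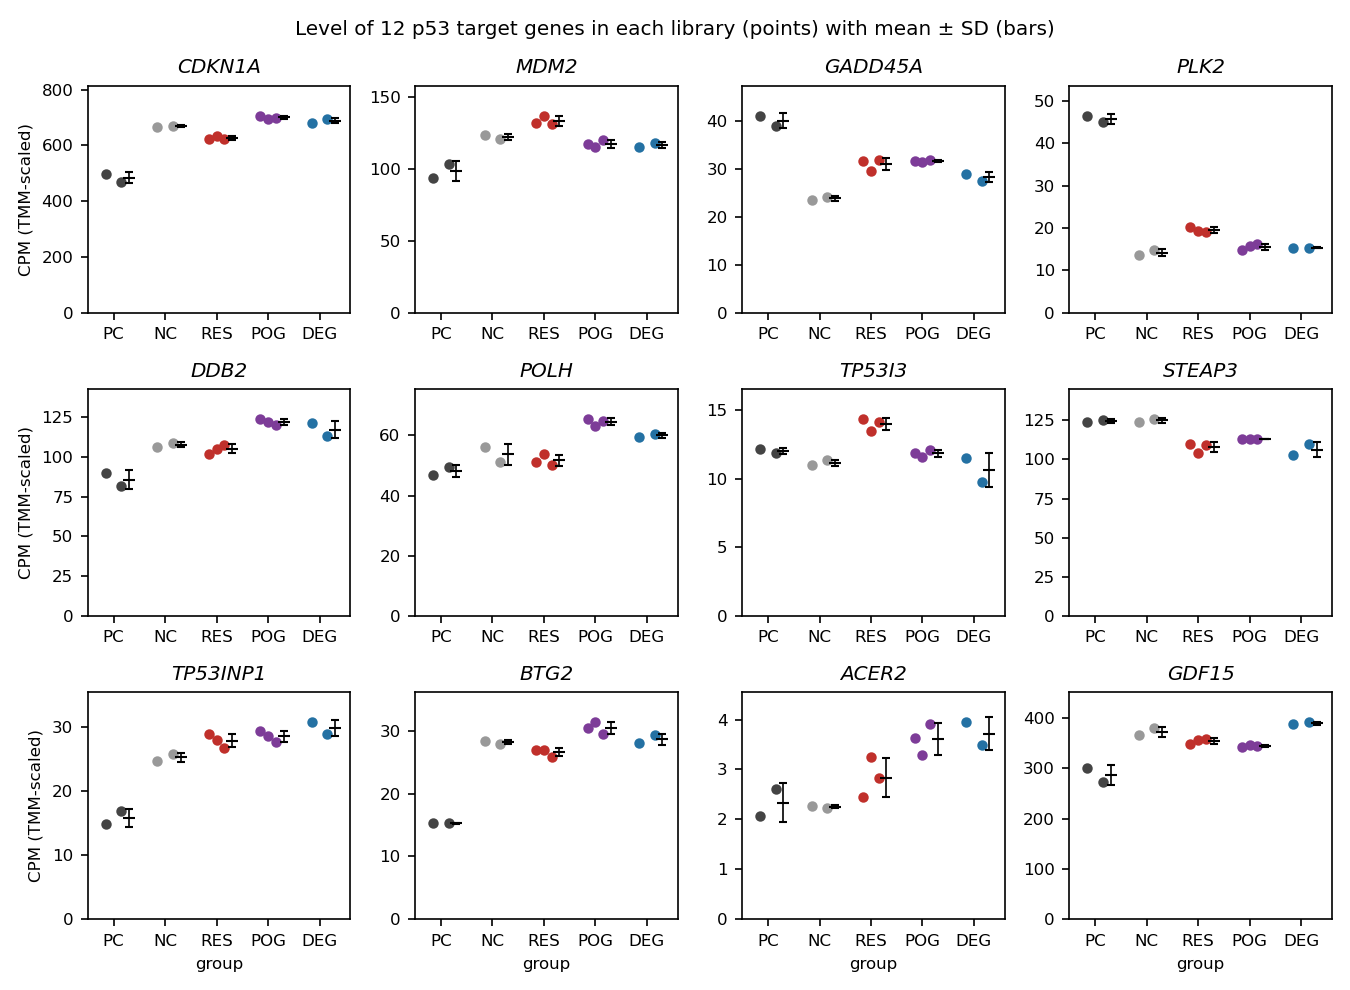
TMM-scaled CPM (vertical axes, starting at 0) of 12 of the genes in each library (points) by group, with the mean and SD of each group (black). With serum PLK2 stood at 46.5 and 44.9 CPM, above all other libraries, and BTG2 at 15.2 and 15.3 CPM, below them; RES was highest for MDM2 and TP53I3.

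Of the 4 genes of DNA repair and nucleotide supply, 3 rose with POG and 3 fell with serum. POLH encodes polymerase eta, which copies past ultraviolet damage. It stood at 56.2 and 51.3 CPM in the negative controls and at 65.6, 63.3 and 64.8 CPM with POG (0.26, SE 0.0463, edgeR FDR 1.54e-06), while RES (51.1, 53.9 and 50.3) overlapped the negative controls. POLH was higher in POG than in RES (0.32, SE 0.0408, edgeR FDR 2.35e-12) and higher in DEG (59.5 and 60.6 CPM) than in RES (0.21, SE 0.0462, edgeR FDR 1.28e-04). These 3 calls held in every alternative. The change with DEG against the negative control was 0.16 (edgeR FDR 0.0315), which did not pass without negative control replicate 2 (0.478), DEG replicate 1 (0.127) or 2 (0.241), or the filter on low counts (0.0548). With serum POLH fell to 46.7 and 49.6 CPM (−0.16, edgeR FDR 0.00891), which did not pass without positive control replicate 1 (0.117) or negative control replicate 1 (0.295). Exons of POLH and GTPBP2 overlap on opposite strands by 3.1% of the bases of POLH.

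DDB2, a sensor of ultraviolet damage whose promoter element is printed above, fell with serum from 107 and 109 to 90.02 and 81.7 CPM (−0.33, SE 0.0449, edgeR FDR 7.63e-11). With POG it rose to 124, 122 and 119.996 CPM (0.18, SE 0.0405, edgeR FDR 6.57e-04), which did not pass without negative control replicate 1 (0.0557). RES (102, 105 and 108 CPM) overlapped the negative controls. DEG (121 and 113) lay above them without a call (0.12, edgeR FDR 0.0884). The differences from RES were 0.22 for POG (SE 0.0358, edgeR FDR 2.79e-07), held in every alternative, and 0.16 for DEG (SE 0.0404, edgeR FDR 0.0022), lost without DEG replicate 1 (0.206). RRM2B, the ribonucleotide reductase subunit that supplies nucleotides for repair, stood at 40.5 and 41.8 CPM in the negative controls and 48.1, 48.02 and 46.9 CPM with POG (0.21, SE 0.046, edgeR FDR 1.86e-04, held in every alternative). It was also higher in POG than in RES, which had 43.6, 40.8 and 42.9 CPM (0.17, SE 0.0403, edgeR FDR 4.64e-04). With DEG, RRM2B had 45.1 and 45.9 CPM (0.15, edgeR FDR 0.0605). With serum it fell by 0.13 to 37.1 and 37.97 CPM (edgeR FDR 0.0346), which did not pass without positive control replicate 1 (0.173), negative control replicate 1 (0.059) or 2 (0.255), by DESeq2 (0.06), or with no filter on low counts (0.0918). XPC, the damage recognition factor of nucleotide excision repair, was not called in any comparison and had log2 fold changes between −0.08 and 0.09.

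The metabolic and secreted genes moved in different directions. STEAP3, a ferrireductase of iron uptake, fell with each compound and not with serum: it stood at 124 and 126 CPM in the negative controls, 124 and 125 with serum, 110.2, 104 and 109 with RES, 113, 113 and 113 with POG, and 103 and 109.6 with DEG. All 8 compound libraries lay below all 4 control libraries. The log2 fold change of STEAP3 was −0.21 with RES (SE 0.0361, edgeR FDR 3.06e-06), −0.14 with POG (SE 0.036, edgeR FDR 0.00314) and −0.23 with DEG (SE 0.0399, edgeR FDR 4.13e-06). The POG call did not pass without negative control replicate 2 (edgeR FDR 0.107), and the other 2 held in every alternative. Its exons overlap STEAP3-AS1 on the other strand over 500 bases.

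ACER2, a ceramidase gene, had few reads and the largest rise with POG. It stood at 2.27 and 2.24 CPM in the negative controls, 2.06 and 2.61 with serum, 2.44, 3.24 and 2.83 with RES, 3.64, 3.29 and 3.91 with POG, and 3.95 and 3.48 with DEG. The log2 fold change was 0.68 with POG (SE 0.165, edgeR FDR 6.23e-04), held in every alternative, and 0.72 with DEG (SE 0.18, edgeR FDR 0.00144), lost without DEG replicate 1 (0.0792). With RES it was 0.33 (SE 0.169, edgeR FDR 0.226). POG exceeded RES by 0.35 (edgeR FDR 0.0395), a call of ACER2 lost without RES replicate 1 (0.23) or 3 (0.098) or POG replicate 1 (0.0952) or 3 (0.186), and by the quasi-likelihood test (0.0595), DESeq2 (0.0966) and with no filter on low counts (0.0577).

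TP53I3, a quinone oxidoreductase gene, was highest with RES. It had 11.02 and 11.3 CPM in the negative controls and 14.4, 13.5 and 14.1 CPM with RES (0.32, SE 0.0797, edgeR FDR 0.0013), which did not pass without negative control replicate 1 (0.07). POG (11.8, 11.6 and 12.1 CPM) and DEG (11.5 and 9.79 CPM) lay below RES, by −0.24 (SE 0.069, edgeR FDR 0.00324) and −0.39 (SE 0.0804, edgeR FDR 2.27e-05), and both differences of TP53I3 held in every alternative. FDXR, the ferredoxin reductase of mitochondria, went the other way. It had 32.7 and 35.8 CPM in the negative controls, 30.1 and 27.9 with serum, 35.2, 37.4 and 35.7 with RES, 40.2, 39.6 and 38.9 with POG and 39.3 and 37.9 with DEG. FDXR fell by 0.24 with serum (edgeR FDR 2.88e-04) and rose with POG (0.21, SE 0.0523, edgeR FDR 0.00183) and DEG (0.17, SE 0.0578, edgeR FDR 0.0413). The calls of FDXR did not pass without negative control replicate 2 for serum (0.0667) and without negative control replicate 1 for POG (0.206) and DEG (0.517). The DEG call also failed without DEG replicate 1 (0.326) or 2 (0.109), by the quasi-likelihood test (0.062), by DESeq2 (0.0671) and with no filter on low counts (0.0821). Against RES, POG gave 0.13 (edgeR FDR 0.0212), a call of FDXR lost without RES replicate 1 (0.108) or 3 (0.0818) or POG replicate 1 (0.0954) or 2 (0.0627).

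GDF15, a secreted stress cytokine, separated DEG from POG. It stood at 365 and 379 CPM in the negative controls, 300.1 and 272 with serum, 347, 357 and 358 with RES, 341, 346 and 344 with POG, and 387 and 392 with DEG. Both DEG libraries exceeded every other library. Serum lowered it by 0.38 (SE 0.036, edgeR FDR 5.45e-19). GDF15 was higher in DEG than in POG (0.18, SE 0.0326, edgeR FDR 7.12e-04) and than in RES (0.14, SE 0.0326, edgeR FDR 0.00219), and was not called for DEG against the negative control (0.06, edgeR FDR 0.388). The difference of DEG and POG did not pass without DEG replicate 1 (0.063) or 2 (0.139), and that of DEG and RES without DEG replicate 2 (0.0705). The fall of GDF15 with POG (−0.11, edgeR FDR 0.0196) was lost without negative control replicate 2 (0.349), without POG replicate 1 (0.0851), 2 (0.0515) or 3 (0.0661), with plain totals (0.0749) and with no filter on low counts (0.0512). SESN1, a stress-induced inhibitor of growth signalling, fell with serum from 13.7 and 14.3 to 10.1 and 10.5 CPM (−0.44, SE 0.0835, edgeR FDR 1.42e-06) and was not called with a compound. SESN2, TIGAR and FUCA1 were not called in any of the 7 comparisons.

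Among 9 genes of cell death and survival, TP53INP1 and EDA2R fell with serum, and the others of this group did not pass in that comparison. TP53INP1, which promotes p53 activity and autophagy, went from 24.7 and 25.8 CPM in the negative controls to 14.8 and 16.8 CPM with serum (−0.68, SE 0.0703, edgeR FDR 5.36e-20). It rose with DEG to 30.8 and 28.9 CPM (0.24, SE 0.0666, edgeR FDR 0.00677) and with POG to 29.4, 28.6 and 27.6 CPM (0.18, SE 0.0606, edgeR FDR 0.0316). RES had 28.9, 28.0 and 26.7 CPM (0.14, edgeR FDR 0.121), so that all 8 compound libraries lay above both negative controls. The DEG call of TP53INP1 was lost without negative control replicate 1 (0.146) or DEG replicate 1 (0.197). The POG call did not pass without negative control replicate 1 (0.308) or 2 (0.0874) or POG replicate 1 (0.14) or 2 (0.0796), by the quasi-likelihood test (0.0512) and by DESeq2 (0.0643). EDA2R, a death receptor of the TNF receptor family, fell with serum from 18.2 and 20.6 to 14.1 and 13.96 CPM (−0.47, SE 0.0761, edgeR FDR 1.35e-08). It stood at 21.4, 20.5 and 20.3 CPM with POG against 19.6, 18.2 and 17.8 with RES, a difference of 0.16 (edgeR FDR 0.0276) that was lost without RES replicate 2 (0.103) or 3 (0.146), POG replicate 1 (0.134) or 2 (0.0545), and by DESeq2 (0.0581).

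SPATA18, a gene of mitochondrial quality control, had 3.54 and 3.39 CPM in the negative controls, 4.13, 4.83 and 4.69 with POG (0.39, edgeR FDR 0.034) and 4.31 and 5.06 with DEG (0.44, edgeR FDR 0.0442). The POG call of SPATA18 was lost without negative control replicate 1 (0.153) or 2 (0.245) or POG replicate 2 (0.133) or 3 (0.113), the DEG call without negative control replicate 1 (0.161) or 2 (0.24) or DEG replicate 2 (0.44), and both by the quasi-likelihood test (0.0577 and 0.0733) and DESeq2 (0.0867 and 0.0989), and with no filter on low counts (0.0561 and 0.077). AEN, a nuclease of apoptosis whose element is printed above, was called only for DEG (87.2 and 89.3 CPM) against RES (80.9, 81.6 and 81.6), at 0.12 (edgeR FDR 0.018), which was lost without RES replicate 1 (0.0584) or DEG replicate 1 (0.0689) or 2 (0.227), and with no filter on low counts (0.0755). TNFRSF10C, a decoy receptor for the death ligand TRAIL with close paralogs, had 43 to 106 reads per library and was not called in any comparison. The same held for PHLDA3, PERP, TRIAP1 and CYFIP2, with log2 fold changes between −0.08 and 0.22.

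**Figure D3:**
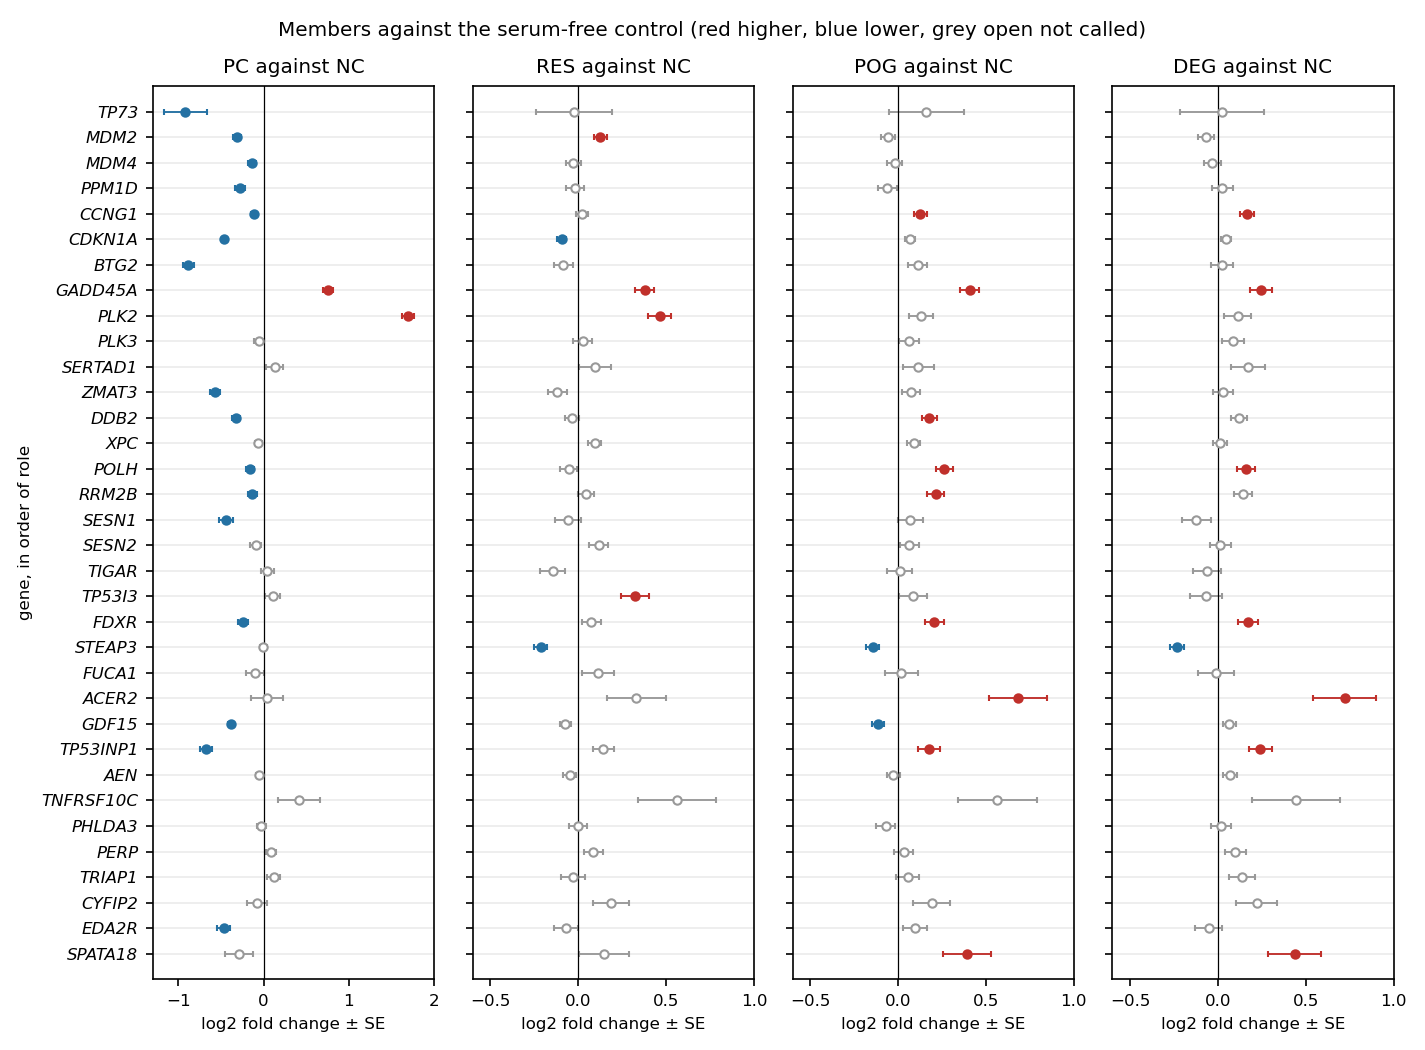
Log2 fold change with its SE (horizontal axes) of 34 of the genes in the 4 comparisons with the negative control; TP63, at −0.96 to −2.28, is left out for scale, and the serum panel has a wider axis than the others. Filled points passed an FDR of 0.05 (red higher, blue lower): 2 higher and 16 lower with serum in this plot, against 9 higher and 2 lower with POG.

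The compounds were compared directly at the same dose by mass (1 µg/mL), which need not be the same molar dose. POG and RES differed in 13 of the 35 genes, 10 higher and 3 lower in POG, where 27.9% of all genes tested differed (13.7% higher, 14.1% lower). DEG and RES differed in 10, 7 higher and 3 lower in DEG, where 21.2% of all genes did (10.3% higher, 10.8% lower). The genes lower in POG, and those lower in DEG, were MDM2, PLK2 and TP53I3. These comparisons share the RES libraries. With genes averaging below 1 CPM set aside, 35.2% of all genes differed between POG and RES, and 27.1% between DEG and RES. Of the 34 listed genes then left, 13 and 11 did. Of the calls, 9 of 13 for POG and 5 of 10 for DEG held in every alternative. For DEG these were CDKN1A, MDM2, PLK2, POLH and TP53I3, and for POG the same genes with BTG2, DDB2, RRM2B and ZMAT3.

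POG and DEG differed in 1 of the 35 genes, GDF15, where 1.05% of all genes tested differed (0.55% higher and 0.497% lower in DEG). For the 8 genes called both for POG against RES and for DEG against RES, the interval of the difference of DEG and POG (95%, from the log2 fold change and its SE) was −0.08 to 0.03 for CDKN1A, −0.09 to 0.07 for MDM2, −0.15 to 0.11 for PLK2, −0.31 to 0.01 for TP53I3, −0.19 to −0.01 for POLH, −0.14 to 0.02 for DDB2, −0.03 to 0.11 for CCNG1 and −0.14 to 0.06 for ZMAT3. These intervals are not adjusted for the number of genes. The interval of POLH leaves out 0, while its edgeR FDR over all genes was 0.381. With dispersions from the 2 groups alone, GADD45A (−0.16, edgeR FDR 0.0411) and STEAP3 (−0.09, edgeR FDR 0.0421) were called as well, both lower in DEG.

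**Figure D4:**
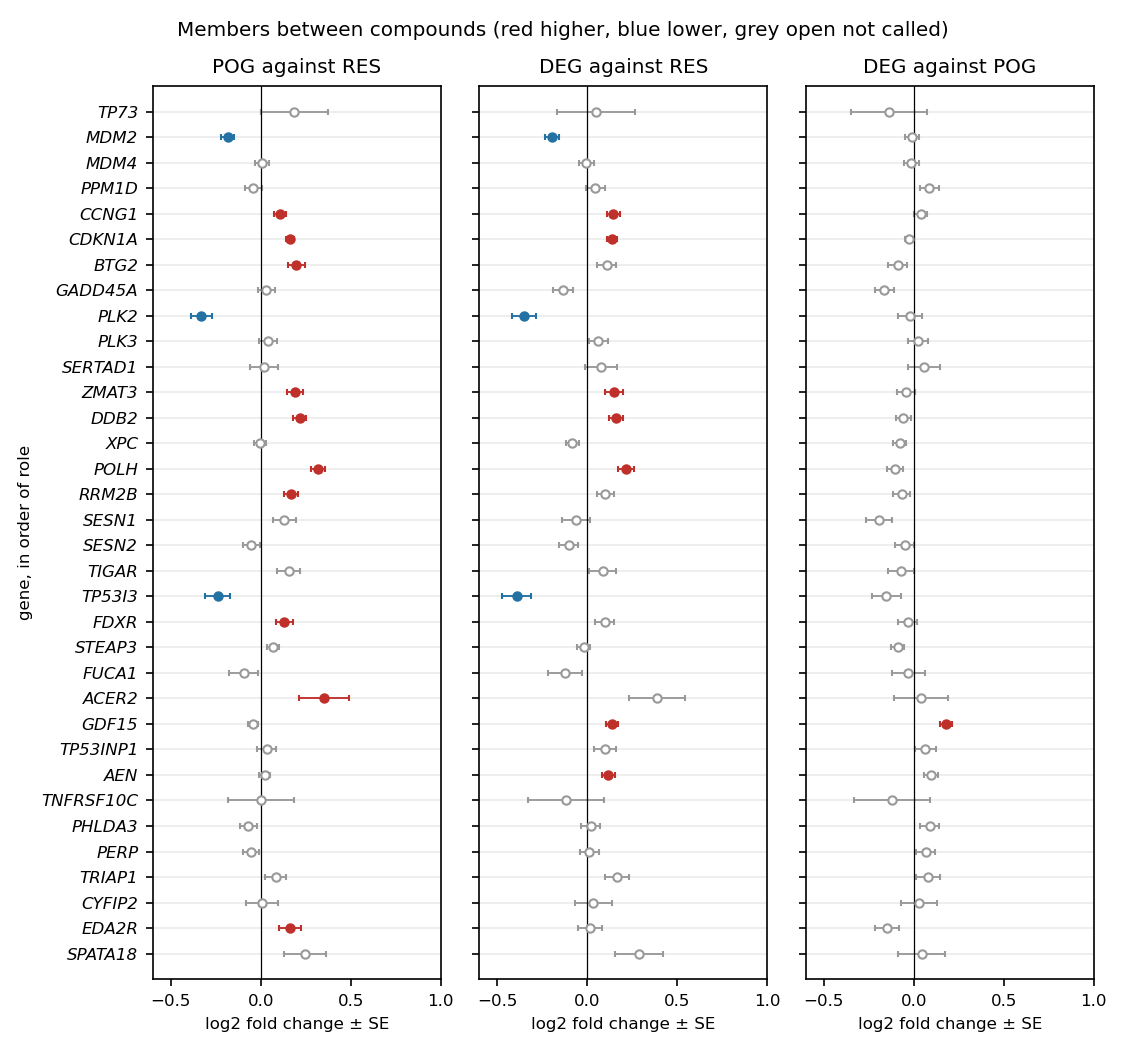
Log2 fold change with its SE (horizontal axes) of 34 of the genes between compounds; TP63 is left out for scale and was not called. Filled points passed an FDR of 0.05 (red higher, blue lower); MDM2, PLK2 and TP53I3 lie to the left in both comparisons with RES, and GDF15 is the 1 filled point for DEG against POG.

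Of 46 further known p53 targets, 45 were tested. With serum 7 rose and 24 fell, with RES 4 rose and 3 fell, with POG 4 rose and 7 fell, and with DEG 2 rose and 4 fell. As shares these are 68.9%, 15.6%, 24.4% and 13.3% of the 45, beside 42.4%, 11.2%, 14.5% and 9.63% of all genes. Once genes averaging below 1 CPM were set aside, the shares of all genes were 52.3%, 14.6%, 18.9% and 12.8%. Of these targets, 31, 9, 11 and 7 were then called. The median log2 fold change was −0.12 for serum, 0.00 for RES, 0.02 for POG and 0.03 for DEG. The share of all genes called also fell in each fit that left out 1 library. Without 1 library the number called was 22 to 29 with serum, 0 to 5 with RES (2 without negative control replicate 1, 0 without replicate 2, 4 without RES replicate 2 and 3 without RES replicate 3), 8 to 11 with POG and 4 or 5 with DEG. Scaled by plain totals, the rises and falls of these targets were 5 and 28 with serum, 8 and 1 with RES, 5 and 7 with POG, and 4 and 4 with DEG. That scaling shifted the calls over all genes as well, as given above. SFN, which encodes 14-3-3 sigma, fell by 1.08 with serum (edgeR FDR 7.56e-05). DRAM1, a gene of autophagy, fell by 0.47 with POG (edgeR FDR 2.81e-27) and by 0.34 with DEG (edgeR FDR 3.49e-11), and lay lower in POG than in RES (−0.52, edgeR FDR 1.55e-42). DDIT4, an inhibitor of mTOR signalling, fell by 0.34 with DEG (edgeR FDR 1.19e-13) and by 0.15 with RES (edgeR FDR 0.0015), the last lost without negative control replicate 2 (0.0901). ATF3, a stress transcription factor, fell by 0.26 with POG (edgeR FDR 8.80e-05).

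Of 18 regulators and cofactors of p53, 6 rose and 6 fell with serum, while 1 fell with RES and 1 with POG. As shares these are 66.7%, 5.56% and 5.56% of the 18, beside 42.4%, 11.2% and 14.5% of all genes. Here too, the shares of all genes were higher with low-count genes set aside. The number called with RES was 0 without negative control replicate 1 or 2 or RES replicate 1 or 3, and with POG 0 without negative control replicate 1 or 2 or POG replicate 1 or 2. DESeq2 called 0 with either. With plain totals these became 3 and 7 with serum, and 1 rose with RES, 1 with POG and 1 with DEG. The shift of the calls over all genes under that scaling is given above. With DEG the exact test in its main setting, the quasi-likelihood test and DESeq2 called 0 of them, and 2 were under an unadjusted p of 0.05. The exact test called 1 with DESeq2 size factors, 1 with no filter on low counts and 1 on genes with a mean of 1 CPM or more. It called 2 with dispersions from the 2 groups compared. PPP1R13L, which encodes the p53 inhibitor iASPP, rose by 0.46 with serum (edgeR FDR 9.04e-22) and RPL5, a ribosomal protein that binds MDM2, by 0.43 (edgeR FDR 1.37e-25). The kinase gene HIPK2 fell by 0.34 with serum (edgeR FDR 4.45e-05). KAT5, an acetyltransferase of p53, was higher in POG than in RES (0.30, edgeR FDR 1.90e-06).

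Genes of the cell cycle known as repressed by p53 through p21 and the DREAM complex were read beside CDKN1A. Whether p53, p21 or DREAM acted on them in these cells was not tested. Of 22 such genes 17 rose and 1 fell with serum, 0 rose and 5 fell with RES, 10 rose and 0 fell with POG, and 5 rose and 1 fell with DEG. As shares called these are 81.8%, 22.7%, 45.5% and 27.3% of the 22, beside 42.4%, 11.2%, 14.5% and 9.63% of all genes. Again the shares of all genes were higher with low-count genes set aside. With plain totals the counts were 14 and 3 with serum, 0 and 3 with RES, 11 and 0 with POG, and 6 and 0 with DEG. Calls over all genes shifted too under that scaling, and a smaller share of all genes passed without 1 library. Between POG and RES, 17 were higher in POG and 0 lower (77.3%, beside 27.9% of all genes). With genes averaging below 1 CPM set aside, the share of all genes was 35.2%. The median log2 fold change of the 22 genes was 0.23 for serum, −0.08 for RES, 0.09 for POG and 0.08 for DEG. CDC20, an activator of the anaphase complex, rose by 0.56 with serum (edgeR FDR 1.47e-47), where CDKN1A fell, KIF20A, a mitotic kinesin, by 0.51 (edgeR FDR 2.00e-36) and CCNB1, the cyclin B1 gene, by 0.46 (edgeR FDR 6.72e-25). TTK, a spindle checkpoint kinase, rose by 0.25 with POG (edgeR FDR 3.14e-07) and by 0.25 with DEG (edgeR FDR 5.75e-06). CDK1 was higher in POG than in RES by 0.29 (edgeR FDR 1.65e-16), and so was CDKN1A, whose product inhibits such kinases. With RES the proliferation marker MKI67 fell by 0.19 (edgeR FDR 7.95e-04), a change that missed the threshold without negative control replicate 1 (0.0676), and FOXM1, a transcription factor of mitosis, by 0.18 (edgeR FDR 3.50e-06). Without 1 library the number called was 15 to 17 with serum, 1 to 4 with RES (1 without negative control replicate 1, 2 without replicate 2, 3 without RES replicate 1 or 2), 6 to 10 with POG (6 without negative control replicate 1 or 2), 2 to 4 with DEG (2 without negative control replicate 1 or DEG replicate 2, 3 without DEG replicate 1) and 13 to 16 between POG and RES.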

How the data were processed

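The deposited values are whole-number counts of reads per Ensembl gene in 1 table, with no normalization. Per the study's methods, reads were aligned to hg38 with STAR (BWA MEM was named too) and counted with featureCounts. The counted features were Ensembl genes. The release, the tool versions and the strand setting were not given in the sources used here. Of 13 labelled samples 12 had a column, and DEG replicate 3 was not analysed here. Replicates were numbered in accession order. No label says that they came from separate cultures, so p-values measure the spread between these libraries, which may be technical.

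Symbols for 43214 of 43836 genes came from a table of Ensembl identifiers. filterByExpr left 17092 genes, tested with the exact test of edgeR 4.0.16 (R 4.3.3; TMM scaling, dispersions over all 12 libraries, Benjamini-Hochberg adjustment) in 7 comparisons. SEs came from the quasi-likelihood fit, as the log2 fold change over the square root of F. CPM used TMM-scaled totals. The common biological coefficient of variation was 3.21%. Lengths, positions and overlaps came from GENCODE v44 (hg38). The scripts were tested on simulated counts. The members and gene lists were chosen with earlier results of these data known. Values by library are given for genes called in 2 or more comparisons with the negative control or between compounds, and for TP63 and TP73. For some of these genes, among them SPATA18, TP53I3, EDA2R and AEN, groups outside the comparison described are left out. The genes named from each other list are among the 3 largest called changes of their comparison, with a mean of at least 1 CPM, and not all of these are named.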

Additional observations from a re-analysis of the deposited data

How the results depend on the processing

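Each comparison was repeated with DESeq2 1.42.0 and with the quasi-likelihood test of edgeR. The exact test was repeated after scaling by DESeq2 size factors or plain totals, without the filter, on genes with a mean of 1 CPM or more, with dispersions of the 2 compared groups only, at an FDR under 0.01 and without each library in turn. With an arm of 1 library, the spread came from the other groups. The share of all genes called fell as well in every fit without 1 library. For RES against the negative control it was 8.17% to 8.6% without 1 of the RES libraries, and 11.2% with all. For POG against the negative control it was 11% to 11.4% without 1 of the POG libraries, and 14.5% with all. Leaving out 1 library, the number of the 35 genes called was 14 to 19 with serum, 4 to 6 with RES, 7 to 10 with POG (7 without negative control replicate 1), 3 to 8 with DEG (3 without negative control replicate 1 or DEG replicate 1, and 4 without DEG replicate 2), 10 to 12 for POG against RES, 6 to 11 for DEG against RES (6 without DEG replicate 2) and 0 to 1 for DEG against POG (0 without DEG replicate 1 or 2). With dispersions from the 2 groups compared, DEG against POG gave 3 genes, and over all genes 838 in place of 179, while MDM4, CCNG1, POLH and RRM2B were no longer called with serum. With those dispersions the further p53 targets called were 20 in place of 31 with serum, 14 in place of 7 with RES and 12 in place of 6 with DEG, and the DREAM genes 9 in place of 5 with RES and 11 in place of 6 with DEG. Over all genes the share called was then 34.7% in place of 42.4% with serum. It was 15.9% in place of 11.2% with RES and 15.1% in place of 9.63% with DEG. With no filter on low counts, 4 further targets were called with RES, and 3 DREAM genes with RES and 3 with DEG. Of all genes, 5.08% were then called with RES and 4.44% with DEG. Calls lost in no alternative other than the FDR of 0.01 numbered 13 of 19 with serum, 3 of 6 with RES, 4 of 12 with POG and 1 of 9 with DEG. No call among the 35 genes changed direction. Among the other lists, MKI67 with serum went from −0.12 to 0.013 without positive control replicate 1 (and to −0.25 without replicate 2), and the cause was not tested. DESeq2 gave TP63 no adjusted p in most comparisons. No paired analysis was possible because the labels give no replicate numbers. At this depth changes of TP63 rest on 3 to 27 reads per library.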
